A study of Mus musculus with 15 samples.

Results

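Of 25881 annotated mouse promoters, 294 were expressed in fibroblasts and had no detectable expression in dendritic cells (DCs). They were chosen by 4 values of the deposited promoter annotation: a RefSeq identifier of a coding transcript, a coverage score above 100, an expression value above 1.6 in non-stimulated fibroblasts and an expression value of 0 in non-stimulated DCs. These fibroblast-only promoters were 2.17% of the 13559 promoters with sufficient coverage. A further 421 promoters met the expression criteria but had a score of 100 or less, and were not analysed here. The expression values came from public RNA-seq that the study used (its Methods name FPKM, the table itself names no unit) and served only to choose and order the promoters.

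Nucleosome occupancy around each transcription start site (TSS) was measured in 15 mouse libraries by ChIP-MNase, in which large cross-linked chromatin pieces are immunoprecipitated and then digested on the beads with micrococcal nuclease, an enzyme that cuts DNA between nucleosomes. DCs, differentiated in vitro with GM-CSF from progenitor lines of mouse bone marrow, were non-stimulated or treated for 1 h with lipopolysaccharide (LPS, 100 ng/ml). 3T3 fibroblasts, an established mouse cell line, were non-stimulated or treated for 1 h with TNF-α (5 ng/ml). These 4 groups were deposited as 1 H3K4me1 set each, in which the authors had pooled 2 replicates, so no replicate error exists within them. Control fibroblasts and fibroblasts with stable shRNA knock-down of Brg1 and Brm, the catalytic subunits of the BAF chromatin remodelling complex (hereafter BAF-kd), gave 2 H3K4me1 libraries each with and without TNF-α. TNF-treated fibroblasts also gave 2 libraries for RNA polymerase II phosphorylated at serine 7 (pol-II S7P) and 1 for serine 5 (pol-II S5P), whose antibody and paired-end sequencing changed together and cannot be told apart.

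At active promoters of mammals a nucleosome-depleted region (NDR), where the transcription machinery assembles, lies just upstream of the TSS and is followed by a well-positioned +1 nucleosome. Promoters within CpG islands (CGIs), stretches rich in unmethylated CG dinucleotides, tend to be depleted of nucleosomes in many cell-types, whereas promoters without a CGI more often belong to genes of 1 tissue. H3K4me1, the histone mark used here for enrichment, is found at enhancers and at both active and inactive promoters. Fibroblasts are the connective tissue cells that secrete collagens and other matrix proteins, and DCs are immune cells that present antigen.

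The NDR level of a promoter is its mean occupancy from 150 bp upstream to the TSS divided by its mean occupancy over the 2 kb around the TSS, so that 1 means no depletion and 0 means that no fragment covered the region. A promoter was called open in a library where its NDR level was below 0.5. Patterning levels, the match of occupancy to the mean profile of active promoters of the same cell-type, grow with depletion and with a positioned +1 nucleosome. The authors had scaled each bin to the surrounding 1 kb, so differences in total occupancy between promoters or cell-types are not contained in the values.

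The 150 bases that the NDR level covers are shown for 6 fibroblast-only promoters, 4 for their difference between cell-types and 2 for their expression. They are the 3 with the largest lower value in fibroblasts, the 1 with the largest higher value, the most highly expressed member (Pdgfra) and the most highly expressed member of a hepatocyte gene list (Apoa2). Each runs 5′ to 3′ on the strand of the gene and ends at the base before the TSS, and capitals mark matches to the motif letters given further below, without E-boxes. In mm9 they are Hoxd8 at chr2:74543397-74543546 on the plus strand, Irx5 at chr8:94881546-94881695 on the plus strand, Senp8 at chr9:59598457-59598606 on the minus strand, Dclk1 at chr3:55046299-55046448 on the plus strand, Pdgfra at chr5:75548167-75548316 on the plus strand and Apoa2 at chr1:173155036-173155185 on the plus strand.
Hoxd8: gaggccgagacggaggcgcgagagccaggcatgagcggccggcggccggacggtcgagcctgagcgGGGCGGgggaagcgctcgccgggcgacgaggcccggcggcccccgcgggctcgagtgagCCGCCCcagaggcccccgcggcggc
Irx5: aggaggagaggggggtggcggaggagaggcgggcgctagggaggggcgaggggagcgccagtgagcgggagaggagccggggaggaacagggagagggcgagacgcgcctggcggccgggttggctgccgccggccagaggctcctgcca
Senp8: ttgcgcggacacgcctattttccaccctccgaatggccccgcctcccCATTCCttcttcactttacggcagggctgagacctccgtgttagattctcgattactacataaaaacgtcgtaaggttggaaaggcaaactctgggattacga
Dclk1: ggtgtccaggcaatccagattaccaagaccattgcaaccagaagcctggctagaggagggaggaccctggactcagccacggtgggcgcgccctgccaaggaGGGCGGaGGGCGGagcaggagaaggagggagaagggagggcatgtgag
Pdgfra: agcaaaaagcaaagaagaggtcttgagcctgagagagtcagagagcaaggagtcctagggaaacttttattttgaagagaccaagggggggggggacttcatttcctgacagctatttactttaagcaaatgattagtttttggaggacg
Apoa2: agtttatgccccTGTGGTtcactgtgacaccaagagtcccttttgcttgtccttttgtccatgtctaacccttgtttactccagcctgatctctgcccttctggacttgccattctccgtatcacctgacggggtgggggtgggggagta
The first 3 of these sequences lie in CGIs and hold 26, 14 and 11 CG dinucleotides, and the last 3 do not and hold 5, 1 and 2. The Hoxd8 sequence has GGGCGG or its complement at -84 and at -25 from the TSS, Dclk1 has it at -48 and -41, Senp8 has the TEAD letters at -103 and Apoa2 the RUNX letters at -138. The Irx5 and Pdgfra sequences hold none of the motifs marked.

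The 294 promoters had 294 distinct start sites on 20 chromosomes and 285 gene symbols, with 8 genes represented by 2 promoters and 1 promoter without a symbol. Both Enpp5 promoters lie at nearly the same start and are not independent. An annotated transcript start lay within 50 bp of 84.7% of them, against 87.5% of all covered promoters. A CGI was present at 144 (49.0%), compared with 84.3% of 4516 promoters expressed in both cell-types, 33.9% of 271 promoters expressed in DCs with a fibroblast value of 0, and 12.0% of 926 promoters with a value of 0 in both. The coverage score ranged from 101 to 1385 with a median of 191.5, close to the 201 of all covered promoters. Fibroblast expression ranged from 1.63 to 388 with a median of 4.90, below the 10.9 of promoters expressed in both cell-types. Just inside the threshold lay Clca3a1 (1.63) and Col18a1 (1.64), and just outside it Steap2 (1.59), a further Igf2 promoter (1.58) and Amdhd1 (1.57).

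Markers written down for each cell-type were nearly all expressed in the column of their own cell-type, and some also in the other. All 20 fibroblast markers were above 1.6 in fibroblasts (2.09 to 2159), and 19 of 20 DC and myeloid markers were above 0.298 in DCs, the value that as many promoters exceed in DCs as exceed 1.6 in fibroblasts. In the other column, 2 DC and myeloid markers were above 1.6 in fibroblasts (Cd14 at 2.36 and Cd74 at 1.88). Of the fibroblast markers 4 were above 0.298 in DCs, with S100a4 the highest at 84.5. The rule kept few of the classical fibroblast genes, however. Of the 20 fibroblast markers 17 had a DC value above 0, such as 0.0869 for Col1a1, and Twist1 and Twist2 had low coverage, so that Pdgfra alone was a member.

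Genes of a different tissue stood among the 294 promoters. A list of 66 genes known for expression in hepatocytes, written after the members' symbols had been seen, held 31 of them, among them the apolipoproteins Apoa1, Apoa2, Apoa5, Apoc1, Apoc3 and Apoc4, the iron hormone hepcidin (Hamp) and its paralog Hamp2, the complement proteins C8g and C9 and the cytochrome Cyp1a2. Of the 66 genes, 60 had a fibroblast value above 1.6 and 57 a DC value of 0, and albumin (Alb), with low coverage at its promoter, was listed at 379 in fibroblasts. A CGI was present at 1 of the 31, and their fibroblast values ranged from 1.67 to 126 with a median of 3.92. Whether these transcripts come from the 3T3 cells used for ChIP-MNase was not tested. Mean-profile NDR levels and open shares are therefore also given without them.

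Coverage differed between library types. Fragments covered 84.5% and 88.1% of the fibroblast-only promoters' bins in the DC sets, 85.3% and 90.1% in the pooled fibroblast sets, between 66.9% and 83.2% in the 8 single libraries for H3K4me1, and between 66.2% and 82.4% in those for pol-II. An NDR level of exactly 0, in which no fragment fell on the 150 bp, occurred at 4.08% and 7.14% of members in the DC sets and at 3.74% to 19% in the fibroblast H3K4me1 libraries, so low levels of single promoters rest on few fragments. Between replicate 1 and 2 of a group, the median absolute log2 difference of a member's NDR level was 0.754 to 0.878, against 0.65 between both non-stimulated and 0.714 between both stimulated pooled sets of DCs and fibroblasts. The single libraries are less deeply covered than the pooled sets, so these values are not like for like. Between the non-stimulated and the stimulated pooled set the difference was 0.549 in DCs and 0.568 in fibroblasts. Both lay below the differences between pooled sets of the 2 cell-types, but these sets also differ in stimulation and are not replicates.

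Fibroblast-only promoters showed a shallow NDR in both cell-types, somewhat deeper in fibroblasts. The NDR level of their mean profile was 0.867 in non-stimulated and 0.849 in LPS-treated DCs, and 0.773 and 0.758 in the non-stimulated and TNF-treated pooled fibroblast sets. The 8 single fibroblast libraries lay between 0.768 and 0.892, with a mean of 0.818 ± 0.0442 (SD, n = 8). Both pooled fibroblast sets thus lay below both DC sets, while the single libraries spanned the range from the pooled fibroblast sets to above both DC sets. Promoters expressed in both cell-types were far more depleted, at 0.514 and 0.484 in DCs and 0.470 and 0.411 in the pooled fibroblast sets. Promoters expressed only in DCs showed the opposite order, with a mean of 0.674 over both DC sets and 0.825 over both pooled fibroblast sets. Promoters silent in both cell-types had means of 0.960 and 0.962.

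**Figure D1:**
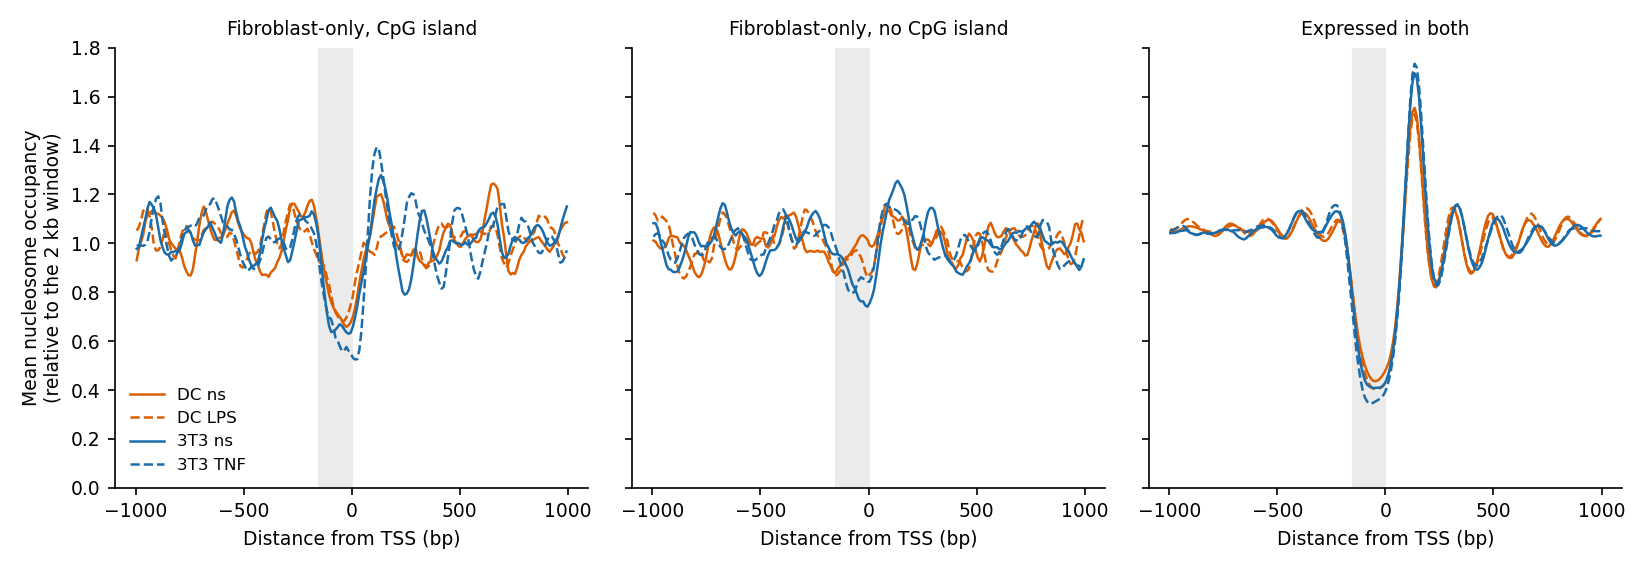
Mean nucleosome occupancy (y axis, relative to the mean of the 2 kb window) against distance from the TSS in bp (x axis) for fibroblast-only promoters with and without a CGI and for promoters expressed in both cell-types. Orange lines are DC sets and blue lines pooled fibroblast sets, solid non-stimulated and dashed stimulated, with the NDR window shaded. CGI members dipped in all 4 sets, members without a CGI dipped in both fibroblast sets only slightly, and promoters expressed in both cell-types dipped to about 0.470 over the NDR in non-stimulated fibroblasts.

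The CGI divided the fibroblast-only promoters more than the cell-type did. The 144 CGI members had NDR levels of 0.760 and 0.773 in the DC sets and 0.697 and 0.655 in the pooled fibroblast sets, and 0.731 ± 0.0659 (SD, n = 8) in the single libraries. The 150 members without a CGI had 0.971 and 0.922 in DCs, near the 1 of no depletion, and 0.845 and 0.855 in the pooled fibroblast sets, with 0.902 ± 0.0476 (SD, n = 8) in the single libraries. In each of the 15 libraries the CGI members had the lower level, and in the pol-II S7P replicate 1 library both lay close together (0.813 and 0.821). At promoters expressed in both cell-types the CGI subset had means of 0.459 in DCs and 0.392 in fibroblasts and the subset without a CGI 0.710 and 0.692, so that fibroblast-only promoters were less depleted within each CGI class.

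The +1 nucleosome showed the same order in the pooled sets. In the mean profile of all members, the highest bin downstream of the TSS reached 1.15 and 1.07 of the window mean in the DC sets and 1.27 and 1.26 in the pooled fibroblast sets, where it lay 135 and 115 bp from the TSS. In promoters expressed in both cell-types it reached 1.55 and 1.53 in DCs and 1.70 and 1.73 in fibroblasts, 135 bp from the TSS in all 4 sets. The members' median patterning level was 1.89 and 1.31 in DCs and 2.72 and 2.37 in the pooled fibroblast sets, against 6.54 to 7.47 in promoters expressed in both. The single fibroblast libraries gave a highest bin of 1.13 to 1.31 and a median patterning level of 1.76 to 2.83, which overlapped the non-stimulated DC set.

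**Figure D2:**
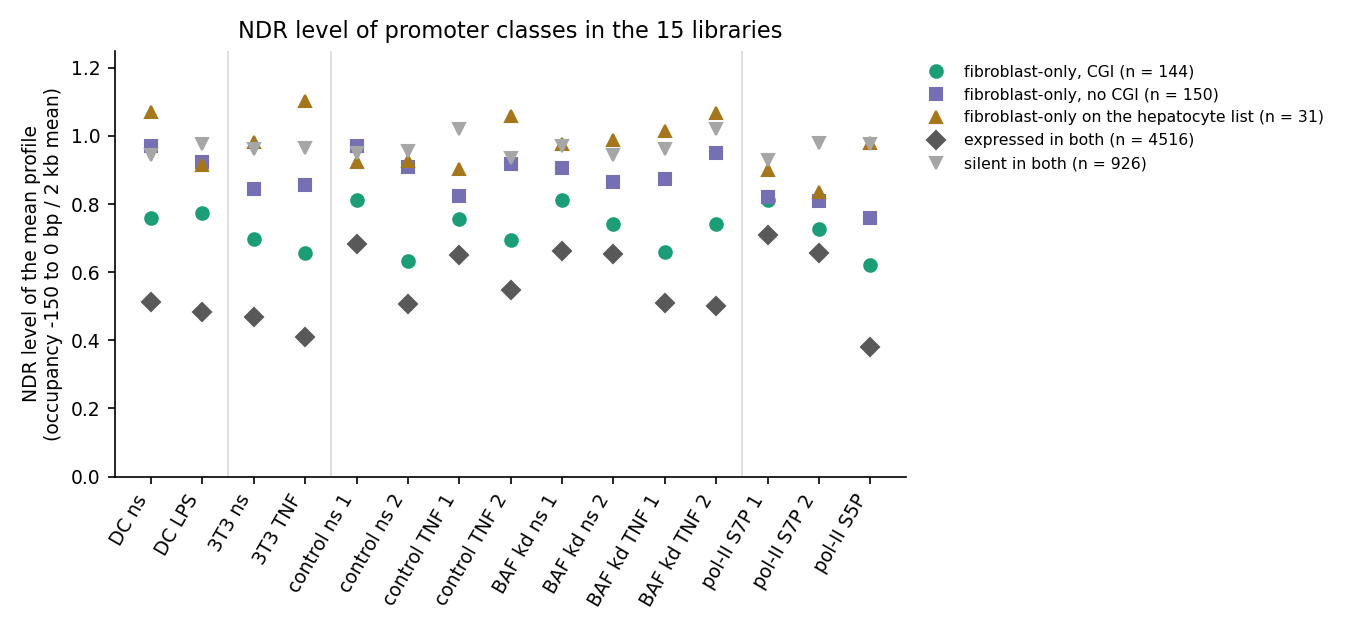
NDR level of the mean profile (y axis, occupancy from -150 to 0 bp over the 2 kb mean) in each of the 15 libraries (x axis), where each point is 1 promoter class in 1 library. CGI members lie between 0.623 and 0.813 in all libraries, hepatocyte-list members between 0.835 and 1.10, and promoters expressed in both cell-types lie below the CGI members in every library.

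Counted promoter by promoter, 27.2% and 28.2% of the members were open in the DC sets and 30.6% and 35.0% in the pooled fibroblast sets. The single fibroblast libraries gave 28.0% to 41.3%. Averaging both sets of a cell-type, 36 members were open in both cell-types, 53 (18%) only in fibroblasts, 27 (9.18%) only in DCs and 178 (60.5%) in neither. Over all covered promoters 13.1% were open only in fibroblasts, 10.6% only in DCs and 48.8% in neither. In promoters expressed in both cell-types 17.4% were open only in fibroblasts, near the members' share, 11.2% only in DCs and 23.5% in neither, and in promoters expressed only in DCs 23.2% were open only in DCs and 10.3% only in fibroblasts. Most fibroblast-only promoters were thus not open in the pooled sets of the cell-type in which they are listed as expressed.

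**Figure D3:**
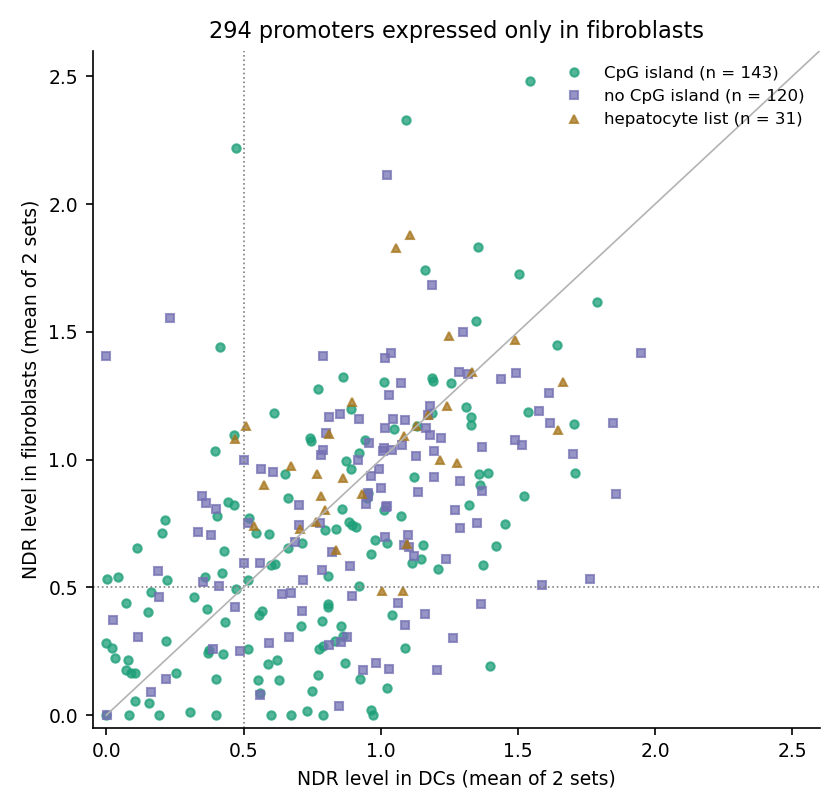
NDR level of each of the 294 fibroblast-only promoters as the mean of both pooled fibroblast sets (y axis) against the mean of both DC sets (x axis). Dotted lines mark the open threshold of 0.5, the solid line equality, and colours the CGI classes and the hepatocyte list. Points scatter on both sides of equality, with 53 members open only in fibroblasts (lower right) and 27 only in DCs (upper left).

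No single fibroblast-only promoter passed the test between cell-types. The non-stimulated and the stimulated set of a cell-type stood in for replicates in this test, so its SEs are not replicate errors. Its smallest adjusted p over all 13559 covered promoters was 0.740 by limma, so 0 calls do not show that single promoters are alike. With limma across all 13559 covered promoters of the 4 pooled sets, 0 members had a lower and 0 a higher NDR level in fibroblasts at an adjusted p below 0.05, and the share called among all covered promoters was 0% in either direction. At an unadjusted p below 0.05 there were 19 members (6.46%, 15 lower and 4 higher in fibroblasts), against 6.27% of all covered promoters. The members' median difference, fibroblasts minus DCs, was -0.10 on the log2 scale with a pseudocount of 0.1, against -0.07 over all covered promoters, and the median SE of a member was 0.48. Both pooled fibroblast sets lay below both DC sets at 78 members (26.5%), while 20.2% of all covered promoters did so, and above both at 35 (11.9%), while 15.8% did so. When all 10 fibroblast H3K4me1 libraries were set against both DC sets, 6 members lay below them and 3 above without overlap, where the shares over all covered promoters were 1.79% and 1.68%. For patterning levels 0 members were likewise called higher (0.0295% of all covered promoters) and 0 lower (0.0443%). At an unadjusted p below 0.05 there were 32 members (10.9%, 21 of them higher in fibroblasts), against 9% of all. The members' median difference in patterning level was 1.36, against 0.23 over all covered promoters, with a median SE of a member of 4.18. It was negative at 39.8% of members and 48.3% of all.

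None of the 10 largest differences, of which 4 lay at listed transcription factors (Hoxd8, Irx5, Sox5 and Foxc2), passed the test. At Hoxd8, a homeobox transcription factor of the trunk and limb, the NDR level was 1.13 and 0.812 in the DC sets and 0 in both pooled fibroblast sets (log2 difference -3.41 ± 0.42 (SE), adjusted p = 0.740 by limma). In the single libraries it was 0 in 6 of 8, and 2.18 and 0.461 in the non-stimulated replicate 1 libraries of control and BAF-kd, so the groups overlapped. At Irx5, an Iroquois homeobox factor, levels were 0.925 and 1.00 in DCs and 0.0370 and 0 in the pooled fibroblast sets, with 0 to 1.72 in the single libraries. Senp8, which removes the ubiquitin-like protein NEDD8, had 1.10 and 0.475 in DCs, 0 in both pooled fibroblast sets and 0 to 0.641 in the single libraries, but it shares its region with an oppositely transcribed start site that is expressed in DCs. The chloride transporter Clcn3, the ERK pathway inhibitor Spry4, the adaptor Bcar1 and the forkhead factor Foxc2 also had lower values in both pooled fibroblast sets than in both DC sets, with log2 differences from -2.83 to -2.63. The reverse was seen at Dclk1, a microtubule-associated kinase, which was at 0 in both DC sets and at 1.11 and 1.69 in the pooled fibroblast sets, and at Sox5 (log2 difference 2.80) and the TGF-β binding protein Ltbp4 (2.54). Dclk1 was below 0.5 in 2 of the 13 fibroblast libraries, and its second promoter showed the opposite order, with a mean of 1.76 in DCs and 0.532 in fibroblasts.

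**Figure D4:**
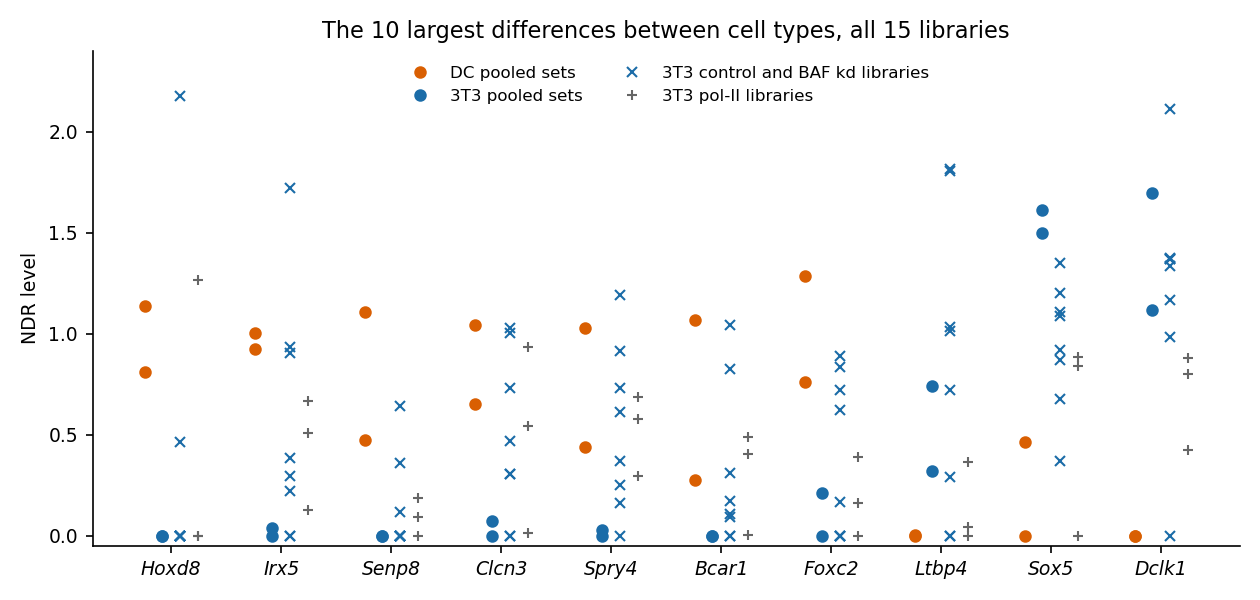
NDR level (y axis) of the 10 fibroblast-only promoters with the largest difference between cell-types (x axis), where each point is 1 of the 15 libraries. Orange circles are DC sets, blue circles pooled fibroblast sets, crosses single fibroblast H3K4me1 libraries and grey plus signs pol-II libraries. The pooled sets of the 2 cell-types separate at each promoter, while single libraries such as those of Hoxd8 (0 to 2.18) span both.

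Expression and depletion were only loosely related among the fibroblast-only promoters. In 4 bins of increasing fibroblast expression, cut at 2.75, 4.90 and 11.8, the mean share open in the pooled fibroblast sets was 28.4%, 25.3%, 35.6% and 41.9%, whereas in the DC sets it was 25%, 29.5%, 29.5% and 27.0%. The single fibroblast libraries gave 28.4% ± 5.26, 30.0% ± 5.97, 36.5% ± 6.12 and 41.2% ± 5.69 (SD, n = 8). The DC share lay below their mean by more than the SD in the 2 bins of highest expression. That SD spans control, BAF-kd and TNF-treated libraries, so it is not a replicate error. These libraries also cover fewer bins than the pooled DC sets they are set against. Promoters expressed in both cell-types and falling in the same expression bins were open at 52.5%, 62.1%, 64.3% and 68.0% in the pooled fibroblast sets, and at 47.1% ± 6.52, 50.3% ± 7.62, 51.9% ± 7.66 and 55.1% ± 8.02 (SD, n = 8) in the single libraries. Within the same expression bins the share open was thus above that of members in both kinds of library, with a smaller gap in the single libraries. The bins do not equalise expression, since the highest has no upper limit. They also do not match CGIs, present at 49.0% of all members and 84.3% of all promoters expressed in both. Across the 294 members, Spearman's rho between NDR level and fibroblast expression was -0.104 and -0.118 in the pooled fibroblast sets and -0.0602 and -0.102 in the DC sets, as a description of promoters within 1 library that share its depth.

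**Figure D5:**
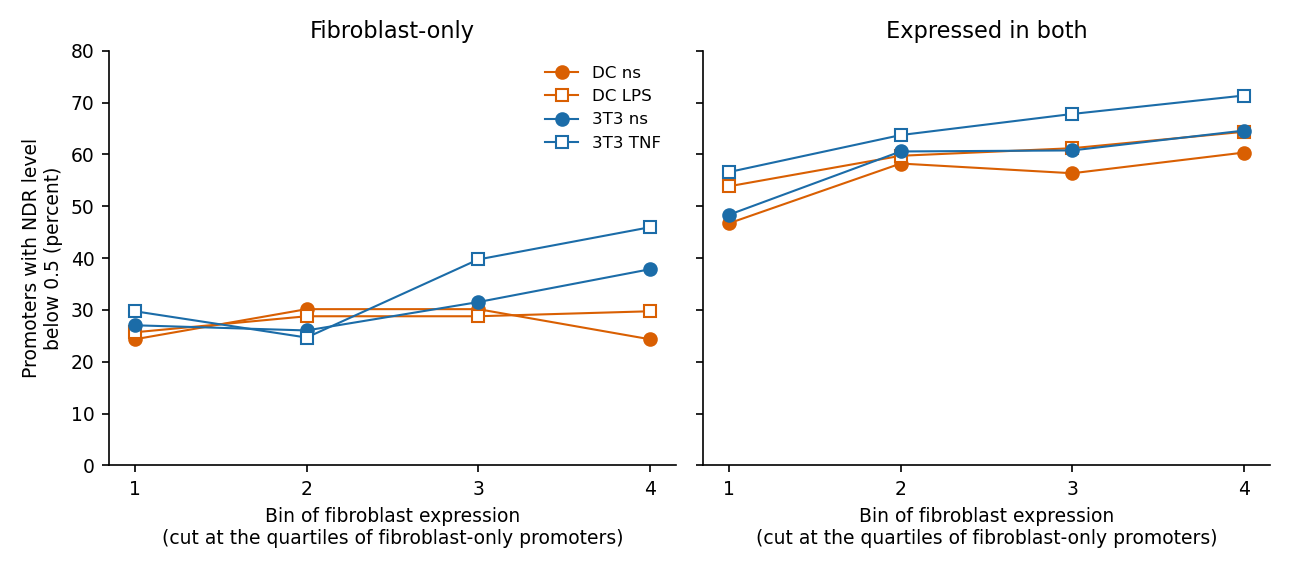
Share of promoters with an NDR level below 0.5 (y axis, percent) in 4 bins of fibroblast expression (x axis), for fibroblast-only promoters and for promoters expressed in both cell-types. Circles are non-stimulated and squares stimulated sets, orange DCs and blue fibroblasts. In the highest bin the fibroblast sets average 41.9% and the DC sets 27.0% of fibroblast-only promoters.

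The most highly expressed members ranged from depleted to fully occupied. Pdgfra, the receptor for platelet-derived growth factors (expression 388), had NDR levels of 1.22 and 0.677 in the DC sets and 0.479 and 1.18 in the pooled fibroblast sets, and 0 to 1.07 in the single libraries, so the cell-types overlapped. Dlk1 (225), a Notch-related inhibitor of adipocyte differentiation, had 0.271 and 1.16 in DCs and 0.753 and 0.591 in the pooled fibroblast sets. Nid1 (198), which links laminin to collagen IV, had 1.17 and 1.14 in DCs and 0.746 and 0.582 in fibroblasts, without overlap of the pooled sets. Gpx8 (154), a peroxidase of the endoplasmic reticulum, had 1.40 and 0.220 in DCs and 0.545 and 0 in fibroblasts. Apoa2 (126) had 1.04 and 1.06 in DCs and the higher 1.96 and 1.70 in the pooled fibroblast sets. The chemokine Cxcl12 (119) had 1.93 and 0.454 in DCs and 1.07 and 1.54 in fibroblasts, while the stromal surface protein Cd248 (104) was at 0.60 and 0.532 in DCs and 0.241 and 0.576 in fibroblasts. Lhfp (98.5) was lower in both fibroblast sets (0.402 and 0.335) than in both DC sets (0.918 and 0.655). The zinc finger factor Osr1 (88.0) was at 0 in both DC sets and at 0.568 and 0 in fibroblasts, and Fbln5 (84.2), a protein of elastic fibres, had 1.72 and 1.32 in DCs and 1.39 and 0.325 in fibroblasts.

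Grouped by function, lists of fibroblast genes held 1 to 23 members each. The lists had been written with earlier results of these data known. None of their members passed the test in either direction, which among all covered promoters called 0%.

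Of the 69 genes listed for extracellular matrix, 9 were members, with a median log2 difference of -0.73 against -0.07 over all covered promoters. Both pooled fibroblast sets were below both DC sets at 3 of them (Nid1, Svep1 and Col18a1) and above at 1, Ccn5, which were named after these counts were seen, where 20.2% and 15.8% of all covered promoters were below and above. Svep1, a large adhesion protein, had 1.14 and 1.39 in DCs and 0.507 and 0.0989 in fibroblasts. Spon2 had 0.781 and 1.61 in DCs and 1.05 and 0.812 in fibroblasts, and the collagen gene Col4a5, singled out after its values were seen, was below 0.5 in both fibroblast sets (0.461 and 0.0366) and at 0.623 and 0.353 in DCs. As a mean profile these 9 promoters had 0.915 in DCs and 0.627 in the pooled fibroblast sets, with 0.677 ± 0.0774 (SD, n = 8) in the single libraries, while their share open was 27.8% in both cell-types and 38.9% ± 13.3 (SD, n = 8) in the single libraries.

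The 5 members among the matrix enzymes all had a negative difference, from -1.30 to -0.10, with a median of -0.89. Over all covered promoters 53.7% were negative, with a median of -0.07. Both pooled fibroblast sets were below both DC sets at 2 of the 5 and above at 0, where 20.2% and 15.8% of all covered promoters were. The collagen chaperone Serpinh1 was at 0.394 and 0.788 in DCs and at 0.0112 and 0.553 in fibroblasts. Plod2, a lysyl hydroxylase of collagen, had 1.44 and 1.47 in DCs and 0.880 and 0.617 in fibroblasts, and a DC-expressed start site lies opposite to it. P3h1, a prolyl hydroxylase with another promoter that is expressed in DCs, had 0.636 and 1.41 in DCs and 0.537 and 0.812 in fibroblasts, and the protease Adamts12 2.24 and 0.303 against 0.840 and 0.767. The mean profile of the 5 gave 1.04 in DCs and 0.595 in the pooled fibroblast sets, and from 0.283 to 0.849 in the single libraries, while the share open was 20% in both cell-types.

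Growth factor signalling had 11 member promoters of 9 genes, with a median difference of 0.13 mean profiles of 0.775 in DCs and 0.767 in fibroblasts, and 40.9% and 36.4% open. Ryk, a Wnt receptor, had 1.17 and 0.380 in DCs and 0.317 and 0 in fibroblasts. The insulin-like growth factor binding protein Igfbp6 had 0.733 and 1.18 against 1.35 and 0.779. The growth factor gene Igf2 was depleted in both cell-types at the more expressed of its member promoters (0.00319 and 0 in DCs, 0 in both fibroblast sets), whereas its single fibroblast libraries ranged from 0.0931 to 1.45.

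Mesenchymal transcription factors were the largest group, with 23 promoters, of which 16 had a CGI. Their share open was 50% in the pooled fibroblast sets, 21.7% in the DC sets and 34.2% ± 7.14 (SD, n = 8) in the single libraries, and the median log2 difference was -0.38. The mean profile stood at 0.883 in DCs, 0.764 in the pooled fibroblast sets and 0.854 ± 0.121 (SD, n = 8) in the single libraries, which thus lay close to the DCs. Both pooled fibroblast sets were below both DC sets at 8 and above at 3, where 20.2% and 15.8% of all covered promoters were. Besides Hoxd8, Irx5 and Foxc2, the lower group included 3 genes singled out after their values were seen, Dlx2, with 0.683 and 1.17 in DCs and 0.132 and 0.152 in fibroblasts, Osr2, with 0.773 and 0.648 against 0.256 and 0.444, and Ebf3, with 0.725 and 0.380 against 0.274 and 0. The cofactor Meis2 had 1.02 and 0.409 in DCs and 0.916 and 0.143 in fibroblasts. The nuclear receptor Nr2f1 had 0.409 and 0.538 in DCs and the widely different 0.0320 and 4.41 in the pooled fibroblast sets. The 8 Hox promoters together had a mean-profile level of 1.10 in DCs and 0.816 in the pooled fibroblast sets, with 0.789 to 1.27 in the single libraries.

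Among the 9 members for adhesion and junctions the median difference was -0.47. Their mean profile was at 0.694 in DCs, 0.631 in the pooled fibroblast sets and 0.875 ± 0.128 (SD, n = 8) in the single libraries, with 33.3%, 38.9% and 34.7% open. The connexin Gjc1 had 0.779 and 0.932 in DCs and 0.502 and 0.196 in fibroblasts but 0.189 to 3.42 in the single libraries, the heparan sulphate proteoglycan Sdc2 had 1.42 and 1.32 against 1.52 and 0.581, and the axon guidance molecule Sema5a was depleted in both (0.0487 and 0.117, and 0 in both fibroblast sets). The only member for the actin cytoskeleton, the myosin light chain Myl9, had 1.11 and 0.860 in DCs and 0.0463 and 0.359 in fibroblasts (log2 difference -2.05 ± 0.73 (SE), adjusted p = 0.781 by limma), with 0.0181 to 0.962 in the single libraries.

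The 31 promoters of hepatocyte genes showed no NDR in the mean profile of either cell-type. Their mean profile was at 1.07 and 0.915 in DCs and 0.982 and 1.10 in the pooled fibroblast sets, with 0.982 ± 0.0617 (SD, n = 8) in the single libraries, close to promoters silent in both cell-types. Of the 31, 28 were open in neither cell-type, 2 only in fibroblasts (Gnmt and Urah, with means of 0.484 in each) and 1 only in DCs (Cfi, 0.469). In the pol-II S5P library, whose antibody marks initiating polymerase, their level was 0.979, against 0.692 for all members. Their highest downstream bin was 1.29 there, against 1.65. For H3K4me1 the order of this bin was reversed, at 1.248 against 1.11 in the DC sets and 1.319 against 1.265 in the pooled fibroblast sets. The single libraries gave 1.287 ± 0.0954 against 1.195 ± 0.0688 (SD, n = 8). With 1 S5P library and 31 promoters, no conclusion is drawn from this bin. Without the hepatocyte list, the other 263 members had mean levels of 0.842 in DCs and 0.733 in the pooled fibroblast sets. They were open at 30.0% and 35.4%. The 120 members without a CGI and off the list had mean levels of 0.936 and 0.809.

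Members beside a start site that is expressed in DCs were more often open in both cell-types. A start site on the opposite strand lay within 1 kb of 39 members, and 27 of these partners had a DC value above 0. These 27 were open at 55.6% in the DC sets and 51.9% in the pooled fibroblast sets, and their mean profile stood at 0.663 and 0.634, with 0.518 to 0.964 in the single libraries. All 39 members with an opposite start site, whatever its DC value, were open at 46.2% in the DC sets and 44.9% in the pooled fibroblast sets. The CGI share of these members is not given here. Another promoter of the same gene had a DC value above 0 for 38 members. The 60 members with a DC-expressed opposite start site or other promoter were open at 40.8% and 37.5%. The 234 members with neither had mean levels of 0.880 in DCs and 0.771 in the pooled fibroblast sets and were open at 24.4% and 31.6%. At the other end, the highest means in the pooled fibroblast sets belonged to Pwwp3b, Rpgr, Nr2f1, Shox2 and Slc27a2, from 1.88 to 2.48, and the lowest in DCs to Dclk1, Osr1, Srsf7, Igf2 and Ltbp4, with means from 0 to 0.00250. The splicing factor Srsf7 was at 0 in all 4 pooled sets and at 0 to 1.31 in the single libraries.

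The NDR levels of fibroblast-only promoters in control and BAF-kd cells differed by less than the spread between libraries. The NDR level of their mean profile was 0.816 ± 0.0528 (SD, n = 4) in control and 0.820 ± 0.0418 (SD, n = 4) in BAF-kd fibroblasts. Per library, control gave 0.892 and 0.773 without TNF and 0.790 and 0.809 with it, and BAF-kd 0.860 and 0.805 without and 0.768 and 0.848 with it, so that the groups overlapped. The highest bin downstream of the TSS was 1.24 ± 0.0676 (SD, n = 4) in control and the lower 1.15 ± 0.0302 (SD, n = 4) in BAF-kd, a difference beyond either SD, although 1 of the BAF-kd libraries lay within the range of the control libraries. Over all covered promoters this bin was 1.26 ± 0.0545 and 1.26 ± 0.0639. In CGI members it was 1.34 ± 0.108 and 1.18 ± 0.101 (SD, n = 4), but in members without a CGI 1.21 and 1.22. The knock-down replicate 1 libraries carry a different digestion tag. Fragments covered more of the members' bins in them (83.2% and 81.0%) than in the control libraries (66.9% to 78.6%). Of 293 members tested by limma, 0 changed in NDR level and 0 in patterning level, where 0% of the 13309 promoters tested were called in either measure. At an unadjusted p below 0.05 there were 16 members for NDR level (5.46%, 14 of them higher upon knock-down) against 5.27% of all, and 14 for patterning level (4.78%) against 5.15%. Median differences were 0.05 in members and 0.02 in all for NDR level. The member with the smallest p, singled out after its value was seen, was Men1, the tumour suppressor menin, with 0 to 0.164 in control and 0.328 to 0.767 in BAF-kd libraries, which did not overlap (adjusted p = 0.560 by limma). Of the pooled fibroblast sets, the non-stimulated one was at 0.526 and the TNF-treated one at 0.

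No fibroblast-only promoter passed the test for 1 h of TNF-α either. The fit by limma called 0 of 293 members (0% of all promoters tested), with 18 at an unadjusted p below 0.05 (6.14%, 12 of them lower with TNF) against 5.52% of all. The median difference was -0.04 in members and -0.09 in all. Rab30, which encodes a small GTPase of the Golgi and was singled out after its value was seen, came closest. Its level was 1.02 and 0.585 in non-stimulated control, 1.54 and 0.555 in non-stimulated BAF-kd and 0 in all 4 TNF-treated libraries (log2 difference -3.25 ± 0.41 (SE), adjusted p = 0.117 by limma). In the pooled sets it was 0.161 without and 0 with TNF, and in the pol-II libraries of TNF-treated cells 0 to 0.616. The difference of the TNF response between BAF-kd and control was called at 0 of 293 members (0% of all), with 8 at an unadjusted p below 0.05 (2.73%) against 5.95% of all.

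On alleles bound by pol-II the fibroblast-only promoters differed between both phosphorylated forms. In the S5P library the NDR level of the mean profile was 0.692, the lowest of the 15 libraries, 45.9% of members were open, and the +1 bin reached 1.65 at 145 bp. Both S7P libraries had 0.817 and 0.769, 35.4% and 33.4% open and a highest bin of 1.27 and 1.14, within the range of the H3K4me1 libraries. Promoters expressed in both cell-types went the same way, with 0.379 in the S5P library and 0.708 and 0.657 in the S7P libraries, so that members remained less depleted than those in each. The median patterning level of members was 4.26 in the S5P library and 2.11 and 3.08 in the S7P libraries, against 11.7 and 4.70 to 5.47 for promoters expressed in both. S5P has 1 library, so its difference from S7P has no replicate check. With all 3 pol-II libraries against 3 H3K4me1 libraries of TNF-treated fibroblasts, limma called 0 members lower and 0 higher (0% of 13319 promoters in either direction), with 23 (7.85%, 12 lower and 11 higher) at an unadjusted p below 0.05 against 7.01% of all. Ramp2, a receptor-modifying protein singled out after its value was seen, had 0 in all 3 pol-II libraries and 0.652 to 1.58 in the 3 H3K4me1 libraries (log2 difference -3.43 ± 0.58 (SE), adjusted p = 0.214 by limma).

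Among the sequence features of the fibroblast-only promoters, the Sp1 letters lay near the share of their CGI class. From 250 bp before to 50 bp after the TSS, on both strands, GGGCGG (Sp1) was present at 78.5% of CGI members and 74.4% of all covered CGI promoters, and at 25.3% of members without a CGI and 22.8% of such promoters in all. CCAAT (NF-Y) was present at 36.4% of members and 37.4% of all. CATTCC (TEAD) stood at 17% of members, against 12.8% of all covered promoters and 10.9% of promoters expressed in both. Within members without a CGI it stood at 20% against 16.2%, and within CGI members at 13.9% against 10.1%. TGANTCA (AP-1) stood at 6.12% against 6.45% of all, TGACGT (CRE) at 7.14% against 9.88%, TGTGGT (RUNX) at 13.6% against 14.6%, CANNTG (E-box) at 68.4% against 67.0%, GAGGAAGT (PU.1) at 2.72% against 3.30% and the CArG box at 1.36% against 1.19%. TGACGT within CGI members stood at 9.72%, against 13.7% of all covered CGI promoters. TATAAA within 50 bp upstream of the TSS on the gene strand was found at 9 members (3.06%), against 2.17% of all covered promoters. All 9 were without a CGI (6% of such members, against 3.69% of all covered promoters without one), and 5 of these 9 were on the hepatocyte list. In promoters silent in both cell-types the share was 8.53%. These shares are matches of letters, and no test was made of them.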

How the data were processed

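The authors aligned reads to mm9 with bowtie (the submitters' processing notes list Bowtie2 and bedtools), removed excess duplicates, kept or extended fragments to mononucleosome length, counted them in 10 bp bins, scaled each bin to the surrounding 1 kb and averaged overlapping bins. The deposited occupancies are this signal in 200 bins around each TSS and hold no read counts. The study reports sequencing depth as a range over its replicates, so here the share of bins with a fragment stands in for the depth of each library. The deposited score and both expression values are scores per promoter. Columns of the authors' own expression changes upon stimulation were not used, so inducible promoters were not removed. The files hold 0 columns of samples that could not be mapped.

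NDR levels were tested as log2(level + 0.1), and patterning levels untransformed, with each library first scaled to a mean occupancy of 1, with limma 3.58.1 in R 4.3.3, two-sided, Benjamini-Hochberg adjusted over all promoters above a score of 100. Cell-type fits used the 4 pooled sets with stimulation as a term, BAF and TNF fits the 8 single libraries, and pol-II fits 6 libraries of TNF-treated fibroblasts. The patterning template left out the members. The fits were run on simulated data with known changes. The simulated noise was normal with the same SD at all promoters and libraries, whereas the data hold many levels of exactly 0. These simulations therefore do not show how often the fits err on the data. A CGI was called from mm9 within 200 bp of the TSS at over 50% GC and with a CpG ratio, observed over expected, of more than 0.6. The study calls its replicates biological and independent, without further detail in the labels. The knock-down replicate 1 libraries carry a different digestion tag from the others.

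Members and gene lists were chosen with earlier results of these data known. Named promoters were the 10 most expressed, the 10 with the largest cell-type difference, 4 per list by expression, 5 at each end of the NDR level and 3 on each side of the threshold, plus those said to be singled out. 1 promoter that the rule names is not reported here. Replicate numbers did not pair libraries: the correlation of replicate differences between groups was -0.00807 to 0.0246. Alternatives are described in the closing section.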

Additional observations from a re-analysis of the deposited data

How the results depend on the processing

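The count of 0 members passing limma held in all 113 combinations of result, direction and alternative tried: another pseudocount, window or reference region, another template or the occupancies as deposited, no filter on score, other terms, leaving out single libraries or both replicate 1 libraries of the knock-down. At an unadjusted p below 0.05 between 8 and 44 members passed. The fits without one replicate gave 0 members throughout. With the replicate block the count was again 0 for each BAF and TNF result, and the replicate numbers share only a number. None of the 10 named cell-type differences changed sign in 100 alternatives, and none passed (smallest adjusted p = 0.278 by limma). They had been picked as the largest in the same 4 pooled sets, so a constant sign was largely fixed in advance and is no sign of robustness. In the fit with all 12 H3K4me1 libraries, the term for pooled or single left the estimate to the pooled sets (Hoxd8 -3.41, as in the main fit). The share of members open depends on the definition: below 0.4 it was 21.9% in DCs and 27.7% in fibroblasts, below 0.6 it was 33.3% and 41.5%, and with a window from -200 to 50 bp it was 16.3% and 20.7%. That window also gave a mean-profile NDR level of 0.819 in fibroblasts. Restricting the members to fibroblast expression above 5 (146 promoters) gave 39.0% open in fibroblasts and a mean-profile level of 0.814 in DCs. Leaving out the hepatocyte list, or members with a DC-expressed opposite start site or other promoter of the gene, was chosen after seeing the data. Either moved these values by less than the spread between the single libraries. Fibroblasts had the higher share open and the lower mean-profile level than DCs under each of these settings. Single libraries cover fewer bins than pooled sets, which limits the precision of every level of 1 promoter.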
